A study of Homo sapiens with 14 samples.

Results

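The genes described here encode 6 cation channels of endosomes and lysosomes: the two-pore channels TPCN1 and TPCN2, the lysosomal potassium and proton channel TMEM175, and the mucolipins MCOLN1, MCOLN2 and MCOLN3. They were chosen by name from the 19440 gene symbols counted in every library, with earlier results of these data known. All 6 were among the 9458 genes with enough counts to be tested, and every library held footprints of every one of them, from 18 to 543 counts. Ribosome footprints, the stretches of message that a translating ribosome shields from nuclease, were counted per gene in 14 libraries of Flp-In T-REx 293 cells, a derivative of the human embryonic kidney line HEK293 made for inducible transgenes. The cells made one subunit of the EMC, the membrane protein complex of the endoplasmic reticulum (ER), with a Flag tag, and ribosomes were recovered from solubilized microsomes before (input) and after (IP) binding to Flag beads.

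In the EMC6 line an EMC6 knockout carried a doxycycline-inducible 3Flag-EMC6, with n = 2 inputs and n = 2 IPs. The EMC7 line carried an inducible 3Flag-EMC7 (n = 2 and n = 2) and the EMC10 line an inducible 3Flag-EMC10 (n = 3 and n = 3), and the labels name no knockout for either. All cells received 0.5 to 1.0 ng/mL doxycycline over 72 h and met cycloheximide, which stalls ribosomes, at harvest. Transgene expression is driven by doxycycline rather than by the subunit's own promoter, the labels do not say whether a line is 1 clone, and an IP from untagged cells was not analysed here. Nothing in the labels ties replicates to separate cultures, and the spread that the p-values rest on may be technical.

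As background, the EMC is an insertase and chaperone that places membrane helices of many multi-pass proteins while they are being made. Two-pore channels hold a tandem repeat of a voltage-gated channel unit, and they release sodium and calcium from lysosomes in response to the phosphoinositide made by PIKFYVE and to the messenger NAADP. TMEM175 is also built from repeats but lacks a voltage sensor. Mucolipins are TRP channels with a large luminal domain between the first and the second helix, a plan shared with polycystins such as PKD2, and loss of MCOLN1 causes mucolipidosis type IV.

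Inputs held 1692490 to 3395114 counts on genes and IPs 515302 to 2248591. The EMC6 line was the shallowest, and reads outside genes made up 9.02% to 12.1% of its libraries against 2.53% to 4.71% in the other lines. The Flag-tagged subunits checked the labels: EMC6, EMC7 and EMC10 footprints were each the most enriched of all genes in their own IP, with log2 changes of 7.54, 5.71 and 7.31. The bait message held 0.45% and 0.43% of the gene counts in EMC6 IPs, 14.39% and 14.96% in EMC7 IPs and 24.63% to 26.15% in EMC10 IPs. Library size includes these counts, so a scaling on library size without the bait messages was run as well. Of the HEK293 markers, VIM (2486 to 4312 counts per input), CDH2 (1095 to 5761) and NEFL (214 to 414) were plainly present, whereas PAX2 had 1 to 9 counts and NEFM 0 to 1. Of 6 markers of other cells, PTPRC, ALB and PECAM1 were at 0 in every library. Their summed level in inputs, mostly COL3A1, was 12.0 to 14.2 CPM for EMC6, 48.0 to 53.6 for EMC7 and 38.9 to 54.6 for EMC10. These CPM are counts scaled to library size alone, whereas the channel levels below are CPM after TMM normalisation. The part of these markers in the results was not tested.

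All 6 channel messages were higher in IP than in input with every bait. TPCN1, TPCN2 and TMEM175 rose 8.33-fold to 18.8-fold in single lines, and the mucolipins 2.2-fold to 5.63-fold. All 6 passed the test in each line (edgeR, adjusted p under 0.05, which is what called means below), beside 17.6% of all tested genes called higher with EMC6, 20.4% with EMC7 and 19.9% with EMC10. Over the mean of the 3 lines all 6 were higher, beside 23.7% of tested genes called higher and 26.9% called lower. The median log2 change of the 6 was 2.76, and that of all tested genes was -0.19. For all 6, every IP lay above every input of the same line in all 3 lines, which held for 17.4% of tested genes. For levels said below to lie apart between lines or baits, the share of tested genes was not computed. The values above rest on TMM scaling, which places the middle of the genes near 0. With library size alone the median of all genes moved to -1.13, and 12% of genes were called higher and 77% lower. All 6 channels were still called higher over the mean of the lines there, at log2 changes of 0.66 (MCOLN2) to 3.01 (TPCN2). In the EMC6 line and in the EMC10 line 5 of the 6 were called at that scaling, all but MCOLN2. The MCOLN2 IPs and inputs of both lines then overlapped, with an EMC10 IP at 71.7 CPM and an EMC10 input at 78.9.

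**Figure D1:**
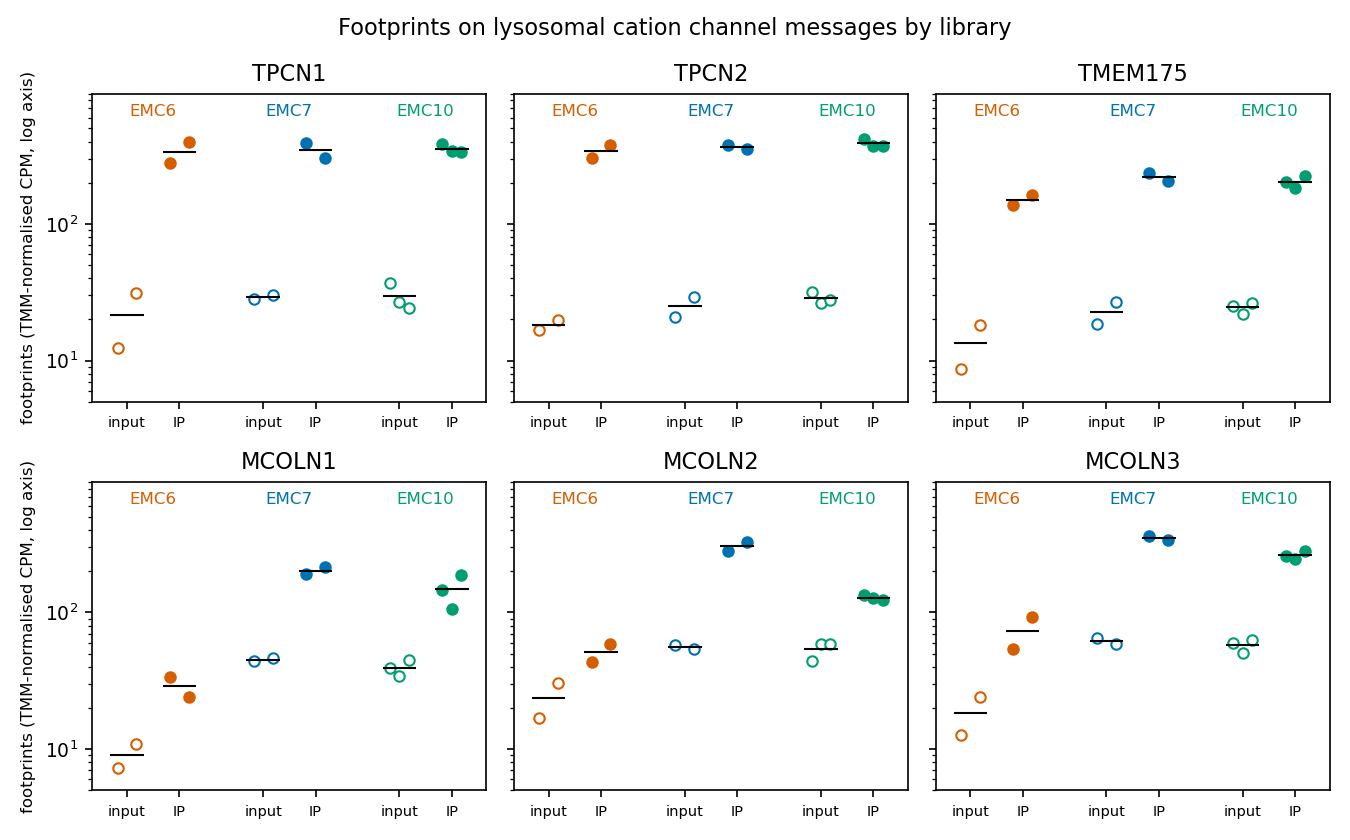
Footprints on each channel message in every library, as TMM-normalised CPM on a log axis, by line and fraction. Open circles are inputs, filled circles IPs and bars group means (n = 2, 2 and 3 per fraction); every IP lies above every input of its line.

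TPCN1, at chr12:113221464-113298585 (GRCh38), had input levels of 12.3 and 31.1 CPM in the EMC6 line, 28.2 and 30.2 in the EMC7 line and 37.1, 27.0 and 24.4 in the EMC10 line. Its IP levels were 277 and 394 CPM with EMC6, 390.45 and 303 with EMC7 and 382, 339.5 and 336 with EMC10. No IP fell within reach of any input, and the widest relative gap between replicates was between the EMC6 inputs, which held 34 and 91 counts. The log2 change was 3.95 ± 0.28 (SE) with EMC6, 3.58 ± 0.25 with EMC7 and 3.57 ± 0.21 with EMC10, and 3.70 ± 0.14 over the mean of the lines (13.0-fold, adjusted p = 7.081e-19). The EMC6 value turned on those inputs, at 4.89 without input replicate 2 and 3.45 without input replicate 1.

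TPCN2, the second two-pore channel, lies at chr11:69048932-69090597 (GRCh38). Its input levels were 16.6 and 19.8 CPM in the EMC6 line, 20.9 and 29.0 in the EMC7 line and 31.99, 26.4 and 27.9 in the EMC10 line. In IP it stood at 305 and 378 CPM with EMC6, 378 and 352 with EMC7 and 422, 370.0 and 374 with EMC10. The IP values of the EMC7 libraries overlapped those of both other baits, and no IP came near an input. With library size alone the EMC6 IPs, at 316 and 359 CPM, lay above all IPs of the other baits. With TMM the fitted change of TPCN2 was the largest of the 6 channels with each bait. It was 4.23 ± 0.22 (SE, log2) with EMC6, 3.89 ± 0.20 with EMC7 and 3.75 ± 0.16 with EMC10. Without EMC6 input replicate 2 the EMC6 change of TPCN1, 4.89, was the larger. Over the mean of the lines TPCN2 rose 15.5-fold (3.96 ± 0.11 on the log2 scale, adjusted p = 3.178e-26), rank 21 of 9458 genes, and TPCN1 had rank 42.

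TMEM175, which sets the resting potassium and proton leak of the lysosomal membrane, lies at chr4:932460-958656 (GRCh38). Input levels were 8.68 and 18.1 CPM in the EMC6 line, 18.4 and 27.0 in the EMC7 line and 25.3, 22.0 and 26.3 in the EMC10 line. IP levels were 138 and 163 CPM with EMC6, 234 and 206 with EMC7 and 204, 184 and 225 with EMC10. The EMC6 IPs were the lowest and did not overlap those of the other baits, and the EMC6 inputs were the lowest too. The change was 3.49 ± 0.27 (SE, log2) with EMC6, 3.30 ± 0.22 with EMC7 and 3.06 ± 0.18 with EMC10. Without EMC6 input replicate 2 the EMC6 change was 4.23. Over the mean of the lines TMEM175 rose 9.73-fold (3.28 ± 0.13, adjusted p = 2.106e-22), rank 89 of 9458.

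MCOLN1, the founding mucolipin, lies at chr19:7522624-7534009 (GRCh38). The stretch of its promoter just before the start of the gene is shown because MCOLN1 is a known target of TFEB, the lysosomal gene regulator that binds CACGTG, and because its input level differed most between the lines. The capitals mark CACGTG on the plus strand of chr19:7522571-7522623 (RefSeq, GRCh38.p14).
MCOLN1: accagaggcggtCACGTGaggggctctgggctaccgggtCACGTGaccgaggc
The matches start 41 and 14 bases before the start of the gene, and both lie within the longer TCACGTGA. Both motifs read the same on either strand. CACGTG was found in 7.26% of 35116 RefSeq promoter windows of 300 bases and TCACGTGA in 0.98%. The windows of TPCN1, TPCN2, MCOLN3 and TMEM175 held neither string, and MCOLN2 was not searched. A match is no evidence of binding, and any part of TFEB in the input levels was not tested.

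Footprints on MCOLN1 were few in the EMC6 line, with 20 and 32 counts in inputs and 18 and 22 in IPs. Input levels there were 7.23 and 10.95 CPM, against 44.2 and 46.0 in the EMC7 line and 39.4, 34.3 and 44.7 in the EMC10 line. IP levels were 33.7 and 24.1 CPM with EMC6, 189.8 and 214 with EMC7 and 146, 107 and 189 with EMC10. In each fraction both EMC6 libraries lay below all libraries of the other lines. The changes from input to IP overlapped within their errors more than the levels did, at 1.61 ± 0.36 (SE, log2), 2.16 ± 0.21 and 1.90 ± 0.17 for EMC6, EMC7 and EMC10. Over the mean of the lines MCOLN1 rose 3.70-fold (1.89 ± 0.15, adjusted p = 1.267e-12), rank 642 of 9458.

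MCOLN3, the mucolipin whose gain-of-function mutation causes deafness in varitint-waddler mice, lies at chr1:85018082-85048500 (GRCh38), next to MCOLN2. Its input levels were 12.7 and 23.95 CPM in the EMC6 line, 65.4 and 58.6 in the EMC7 line and 60.0, 50.8 and 62.7 in the EMC10 line. IP levels were 54.2 and 92.0 CPM with EMC6, 360.2 and 338 with EMC7 and 258, 245 and 281 with EMC10. The IP values of the 3 baits did not overlap one another, with EMC7 highest and EMC6 lowest, and the EMC6 inputs were the lowest too. The change was 2.04 ± 0.27 (SE, log2) with EMC6, 2.49 ± 0.20 with EMC7 and 2.18 ± 0.17 with EMC10. Without EMC6 input replicate 2 the EMC6 change was 2.69. MCOLN3 rose 4.71-fold over the mean of the lines (2.24 ± 0.13, adjusted p = 1.23e-17), rank 436 of 9458 and the highest of the mucolipins.

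MCOLN2, a mucolipin best known from immune cells, lies at chr1:84925583-84997113 (GRCh38). Its input levels were 17.0 and 30.5 CPM in the EMC6 line, 58.2 and 53.7 in the EMC7 line and 44.0, 58.5 and 58.7 in the EMC10 line. IP levels were 43 and 59.2 CPM with EMC6, 282 and 328 with EMC7 and 135, 128 and 122 with EMC10. The inputs of the EMC7 and EMC10 lines overlapped, but every EMC7 IP was above every EMC10 IP. The change was 2.44 ± 0.20 (SE, log2, adjusted p = 1.681e-12) with EMC7, and 1.26 ± 0.17 (adjusted p = 1.688e-07) with EMC10. With EMC6 it was 1.14 ± 0.27 (adjusted p = 0.001739), which with library size alone was 0.42 (adjusted p = 0.178), with library size without the bait messages 0.43 (adjusted p = 0.173) and without EMC6 IP replicate 2 0.84 (adjusted p = 0.191). Without EMC6 input replicate 2 it was 1.73. With library size alone the EMC10 change was 0.14 (adjusted p = 0.434), the highest of the adjusted p over its 22 alternatives. Over the mean of the lines MCOLN2 rose 3.05-fold (1.61 ± 0.13, adjusted p = 2.404e-13), rank 808 of 9458 and the lowest of the 6.

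The 6 channels thus stood in the order TPCN2, TPCN1, TMEM175, MCOLN3, MCOLN1 and MCOLN2, and the differences between them were tested over the 7 pairs of IP and input, where library scaling cancels. An exact two-sided sign-flip permutation test was run for all 15 pairs of genes, with Benjamini-Hochberg adjustment over the 15. The smallest p it can give is 0.015625, or 0.0213 adjusted, and the pairs come from only 3 lines. Of the 15 differences 12 passed. TPCN1, TPCN2 and TMEM175 each exceeded each mucolipin in all 7 pairs, by between 1.05 ± 0.46 (SD, log2) for TMEM175 over MCOLN3 and 2.35 ± 0.76 for TPCN2 over MCOLN2 (adjusted p = 0.0213 for all 9, the exact test's smallest). The SD spans the baits: TPCN2 minus MCOLN2 was 3.05 with EMC6, 1.44 with EMC7 and 2.48 with EMC10. Without the EMC6 line 5 pairs remain, where the smallest p of the exact test is 0.0625, so no difference could pass.

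Within the first group the two-pore channels did not differ beyond their spread, with TPCN1 minus TPCN2 at -0.20 ± 0.29 (SD, n = 7 pairs, exact adjusted p = 0.134). TMEM175 was lower than TPCN1 by 0.45 ± 0.18 and than TPCN2 by 0.65 ± 0.26, in 7 of 7 pairs each (exact adjusted p = 0.0213). Among the mucolipins MCOLN1 minus MCOLN2 was 0.33 ± 0.51 (exact adjusted p = 0.156) and MCOLN1 minus MCOLN3 was -0.32 ± 0.31 (exact adjusted p = 0.0541). MCOLN2 was below MCOLN3 by 0.65 ± 0.47 (n = 7 pairs, exact adjusted p = 0.0391), but this call was lost on leaving out any 1 of the pairs except the second EMC7 pair. The difference between these neighbours was -0.86 with EMC6 and -0.91 with EMC10, and -0.05 with EMC7.

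**Figure D2:**
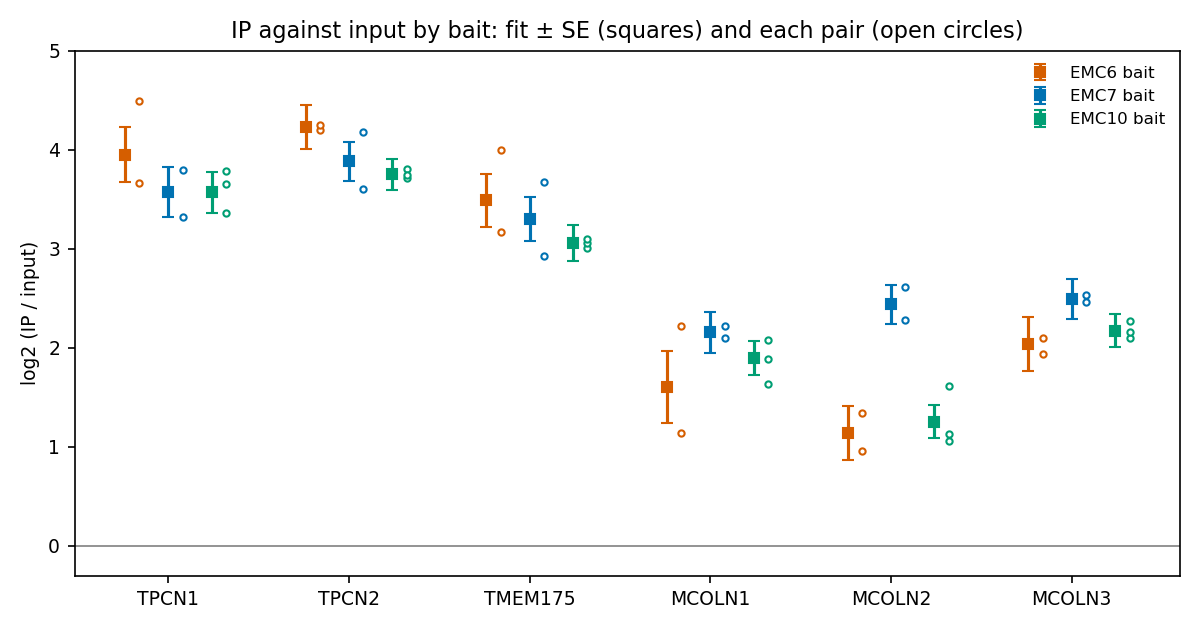
The log2 change from input to IP of each channel with each bait, as the fitted value ± SE (squares) and the single pairs (open circles), with 0 marking no change. The fitted values of TPCN1, TPCN2 and TMEM175 lie at 3.06 or above, those of the mucolipins at 2.49 or below, and MCOLN2 sits at 2.44 with EMC7 against 1.14 and 1.26 with EMC6 and EMC10.

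In raw counts, mucolipins made up 60.3% to 71.3% of the footprints on the 6 channels in the inputs of the EMC7 and EMC10 lines, and 48.6% and 49.5% in those of the EMC6 line. In IP their share was 15.4% and 15.8% with EMC6, 45.3% and 50.6% with EMC7, and 34.8% to 38.8% with EMC10. The share was lower in IP than in input in all 7 pairs. These are shares of footprints and not levels per length of message, so they do not rank the channels by amount.

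Between baits the 6 changes mostly lay within each other's error. With EMC7 minus EMC10, MCOLN2 was the only channel called, at 1.18 ± 0.26 (SE, log2, 95% interval 0.66 to 1.71, adjusted p = 0.0476), or 2.27-fold higher with EMC7. Of all tested genes 0.159% were called in this comparison in either direction, and 0.148% were higher with EMC7. The other channels differed by 0.00 (TPCN1) to 0.32 (MCOLN3), with 95% intervals that reached from -0.67 at the lowest to 0.84 at the highest. No gene of the other lysosomal and channel lists described below was called here, though some had larger values than MCOLN2. Lysosomal hydrolases ran from -0.19 to 1.69 (median 0.51), and other TRP and polycystin channels from -0.47 to 2.03 (median 0.23). The MCOLN2 call was marginal: it was lost on leaving out any 1 of 9 libraries, namely each of the 4 EMC7 libraries, each of the 3 EMC10 IPs, and EMC10 inputs 2 and 3. The value stayed between 1.07 and 1.28 there. It was also lost with library size without the bait messages (1.09, adjusted p = 0.0769) and with scaling on ER luminal genes (0.81, adjusted p = 0.479). Over all 22 alternatives the adjusted p ran from 5.92e-10 (with the replicate block described below) to 0.495, and the cause was not tested.

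With EMC7 minus EMC6 none of the 6 passed the edgeR test, 1 had an unadjusted p under 0.05, and 0.518% of tested genes were called. That channel was again MCOLN2, at 1.302 ± 0.34 (SE, log2, 95% interval 0.62 to 1.98, adjusted p = 0.0629). With the replicate block, which compares each IP with its own input, it was called at 1.35 (adjusted p = 6.401e-06), and DESeq2 also called it (1.25, adjusted p = 0.0343). The block spends a term on each pair, so its p-values lean on the spread pooled over genes. Over all 22 alternatives the adjusted p of MCOLN2 ran from 6.401e-06 to 0.402. The other 5 values ran from -0.38 ± 0.38 for TPCN1 to 0.55 ± 0.42 for MCOLN1. Of the lists described below, 2 of 35 lysosomal hydrolases and 2 of 38 ER luminal genes were called higher with EMC7 than with EMC6. Of the 4-repeat voltage-gated channels 1 of 9 was called lower.

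With EMC10 minus EMC6 none of the 6 was called by edgeR and none of the 5 to which DESeq2 gave an adjusted p (all but MCOLN1), none had an unadjusted p under 0.05 in edgeR, and 0.074% of tested genes were called. TPCN2 was at -0.48 ± 0.27 (SE, log2, 95% interval -1.02 to 0.07), TMEM175 at -0.43 ± 0.32 and TPCN1 at -0.38 ± 0.35, and the mucolipins lay between 0.12 and 0.29. TPCN1 hung on the EMC6 inputs: without input replicate 2 of that line it was -1.34 for EMC7 minus EMC6 (adjusted p = 0.0264) and -1.34 for EMC10 minus EMC6 (adjusted p = 0.0225), and without input replicate 1 it was 0.12 in both. The EMC7 and EMC6, and the EMC10 and EMC6, differences share the EMC6 libraries and are not independent.

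The channels were set beside the proteins they work with. Over the mean of the lines 11 of 11 tested genes of other lysosomal channels and ion exchangers rose, with a median log2 change of 2.98, from P2RX4 (1.16 ± 0.15), an ATP-gated channel, to ANO10 (4.06 ± 0.10), a scramblase of the anoctamin family. All 4 tested chloride channels and exchangers of the list, CLCN3, CLCN5, CLCN6 and CLCN7, lay between 2.86 and 3.11. Lysosomal multi-pass transporters rose in 31 of 31 cases (median 1.92), from LMBRD1 (0.88 ± 0.10), of lysosomal cobalamin export, to ABCD4 (3.60 ± 0.12), its ABC transporter partner. TPCN1 and TPCN2 lay above every gene of these lists except ANO10, TMEM175 below 3 transporters and ANO10, and the mucolipins on either side of the transporters' median.

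Channels with a similar plan gave the closest comparison. Of the other TRP and polycystin channels 10 of 28 were tested and 10 rose (median 2.74), with TRPM7, a channel fused to a kinase, at 2.45 ± 0.12 and PKD1 lowest at 1.00 ± 0.27. PKD2, the polycystin with the same kind of luminal domain as the mucolipins, was at 1.68 ± 0.14, between MCOLN2 and MCOLN1. Of the channels with a voltage-gated unit repeated in tandem, the larger relatives of the two-pore channels, 8 of 9 rose (median 3.21). CACNA1C, the calcium channel pore of heart muscle, was highest at 4.73 ± 0.20, SCN9A, a sodium channel of pain neurons, stood at 2.53 ± 0.13, and NALCN, the sodium leak channel, did not pass (1.81 ± 0.62, adjusted p = 0.0631). By bait NALCN was at 2.31 ± 0.27 with EMC7 (adjusted p = 3.711e-09), 2.25 ± 0.23 with EMC10 (adjusted p = 2.27e-10) and 0.88 ± 1.84 with EMC6. In the EMC6 inputs NALCN was at -4.79 ± 1.07 (edgeR adjusted p = 2.62e-08) against the mean of the other inputs, so its EMC6 value rests on few footprints.

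The membrane subunits of the V-ATPase, the proton pump of lysosomes, rose in 9 of 9 cases (median 1.33). TCIRG1, a large multi-pass subunit, was at 3.11 ± 0.28, and the single-pass ATP6AP1 and ATP6AP2 were at 0.44 ± 0.09 and 0.69 ± 0.09. TCIRG1 was the largest rise of this list, with a mean input level of only 2.32 CPM, and ATP6AP1 the smallest. ATP6AP2 was named for its input level, and a part of the number of helices was not tested. Lysosomal hydrolases rose in 30 of 35 cases (median 0.81), and ER luminal proteins in 23 of 38 (median 0.40). Lysosomal single-pass proteins rose in 7 of 13 and fell in 1 (median 0.31), with the mannose-6-phosphate receptor IGF2R at 0.63 ± 0.09 and LAMP3 at -0.63 ± 0.20. With library size alone these lists turned: 15 hydrolases, 26 ER luminal and 9 single-pass genes fell, and 8, 4 and 0 rose. Under that scaling 5 of the 9 V-ATPase genes rose and 2 fell.

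Regulators of the channels were set beside them too, over the mean of the lines, where 26.9% of all tested genes were called lower. Of the PIKFYVE complex, which makes the lipid that opens two-pore channels and mucolipins, 2 of 3 genes fell (median -0.53), VAC14 at -1.16 ± 0.28 and PIKFYVE at -0.53 ± 0.22. The NAADP-binding proteins JPT2 and LSM12 were at -0.76 ± 0.18, which passed, and -0.07 ± 0.22, which did not. Signalling partners of MCOLN1 fell in 3 of 5 tested genes (median -0.45), among them the calcium-binding PDCD6 at -0.58 ± 0.23 and the calcineurin subunit PPP3R1 at -0.45 ± 0.15. The Ragulator, Rag and mTORC1 genes changed in 0 of 9 cases (median -0.07), with MTOR at 0.05 ± 0.10, although DESeq2 called 1 of them higher. With library size alone all 9, and all 5 partners of MCOLN1, were called lower, beside 77% of all tested genes. In single lines, 877 of all 9458 tested genes were called lower with EMC6, 916 with EMC7 and 1318 with EMC10. Beside these, 1 gene of the PIKFYVE complex was called lower with EMC7 and 0 with EMC6 or EMC10. Of the partners of MCOLN1, 1 was called lower with EMC10 and 0 with EMC6 or EMC7.

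**Figure D3:**
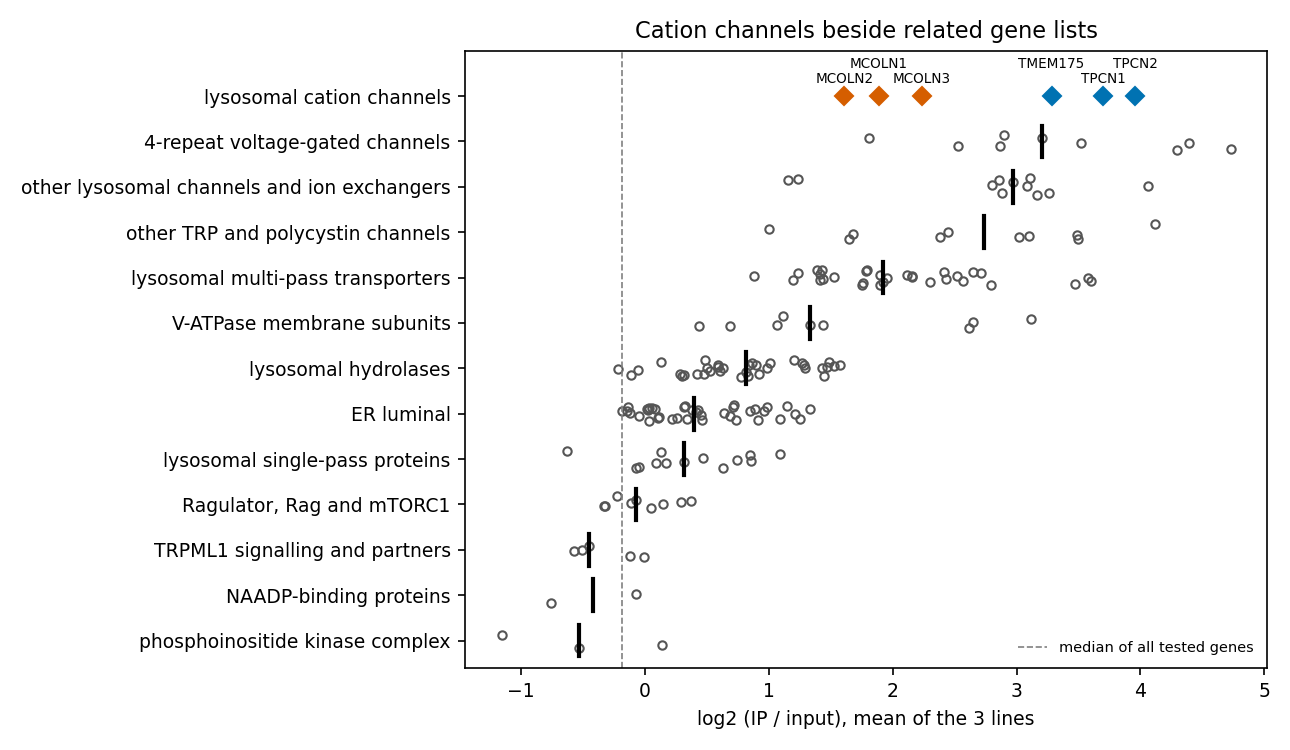
The log2 change from input to IP over the mean of the 3 lines for the 6 channels (diamonds, orange for mucolipins) and for each tested gene of related lists (circles), with list medians as bars and the median of all tested genes, -0.19, as a dashed line. The two-pore channels and TMEM175 lie among the lysosomal and 4-repeat channels, the mucolipins near the median of the lysosomal transporters (1.92), and the regulators of the channels between -1.16 and 0.37.

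The inputs themselves differed between the lines. Input ribosomes came from microsomes, so footprints on an input reflect the amount of message, its translation and its recovery with the microsomes together. These cannot be told apart here. In the inputs of the EMC6 line against the mean of the other inputs, 5 of the 6 channels were lower, beside 21.8% of all tested genes. MCOLN1 fell by 2.199 ± 0.26 (SE, log2, adjusted p = 9.71e-09), rank 47 from the bottom of 9458 genes, MCOLN3 fell by 1.70 ± 0.21 (adjusted p = 7.926e-08) and MCOLN2 fell by 1.20 ± 0.20 (adjusted p = 8.306e-06). TMEM175 was at -0.79 ± 0.24 (adjusted p = 0.00705), TPCN2 at -0.54 ± 0.20 (adjusted p = 0.0301) and TPCN1, which did not pass, at -0.42 ± 0.25 (adjusted p = 0.193).

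Many messages read at the ER were lower in the same inputs. Of ER luminal genes 37 of 38 were lower (median -1.06), of lysosomal hydrolases 32 of 35 (median -0.86), of lysosomal multi-pass transporters 28 of 31 (median -0.89) and of other lysosomal channels 10 of 11 (median -0.86), while the median of all genes was 0.07. With the libraries scaled on the ER luminal genes, MCOLN1 and MCOLN3 were still lower at -1.06 and -0.56, MCOLN2 was at -0.06, TMEM175 turned to 0.35 (adjusted p = 0.193), and TPCN1 and TPCN2 turned to 0.71 and 0.60 (adjusted p = 0.0217 and 0.0141).

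The calls of TMEM175 and TPCN2 were also lost with library size alone, with library size without the bait messages, and without EMC6 input replicate 1, each of which left the 3 mucolipins called. The call of TPCN2 was lost as well without EMC7 input replicate 2 (-0.44, adjusted p = 0.127) and without EMC10 input replicate 1 (-0.50, adjusted p = 0.0576). Without EMC6 input replicate 2 all 6 were called lower, with TPCN1 at -1.30 (adjusted p = 0.0002828), TMEM175 at -1.47 and MCOLN3 at -2.29. The EMC6 line, its knockout, its microsome preparations, its shallower libraries and its larger share of reads outside genes cannot be told apart in this comparison. Between the inputs of the EMC7 and EMC10 lines none of the 6 was called by edgeR or DESeq2, none had an unadjusted p under 0.05, and 0.0211% of tested genes were called. The values ran from -0.22 ± 0.19 for TPCN2 to 0.19 ± 0.19 for MCOLN1.

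**Figure D4:**
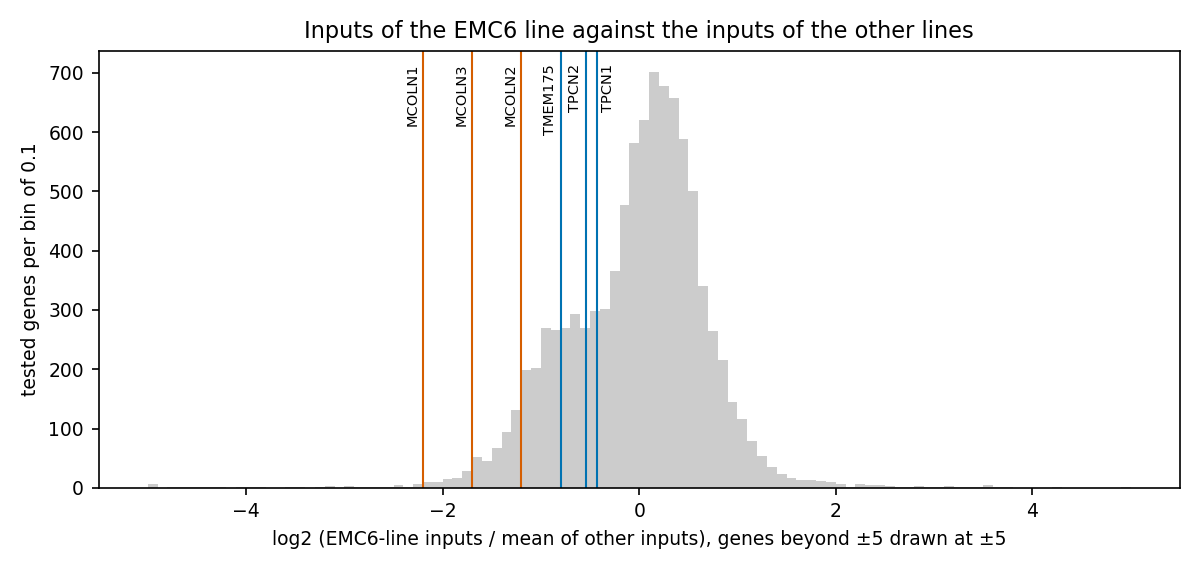
Histogram of the log2 difference between the inputs of the EMC6 line and the mean of the other inputs over all 9458 tested genes, with lines at the 6 channels (orange for mucolipins). MCOLN1 (-2.199), MCOLN3 (-1.70) and MCOLN2 (-1.20) lie in the lower tail, and TPCN1 (-0.42) and TPCN2 (-0.54) nearer the middle of the genes (0.07).

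Finally, each channel was matched to the genes whose 3 changes, 1 per bait, lay nearest to its own among 6328 genes with at least 10 CPM on average, by the Euclidean distance in log2 units over the 3 lines. Near to TPCN1 were PIGQ (distance 0.11), of GPI anchor synthesis, and the scramblase XKR8 (0.12). Nearest to TPCN2 were LMF2 (0.17), the mannosyltransferase ALG9 (0.26) and STT3B (0.26), a catalytic subunit of oligosaccharyltransferase. TMEM175 lay nearest to TMC7 (0.18), TMEM63C (0.19) and the adenylyl cyclase ADCY1 (0.20). The lowest change among these genes with any bait was 2.90, for TMC7 with EMC10.

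MCOLN1 lay nearest to PIGN (0.18), MARCHF9 (0.19) and C3orf80 (0.21), and MCOLN3 to RNF103 (0.21), PDZD8 (0.22) and the hedgehog receptor PTCH1 (0.22). The pattern of MCOLN2, higher with EMC7 than with the other baits, was near to those of CHPF (0.26), of chondroitin synthesis, and the Golgi mannosidase MAN2A1 (0.28). The changes of CHPF were 1.15 with EMC6, 2.22 with EMC7 and 1.39 with EMC10. Among the channels themselves the shortest distance was 0.45 between TPCN1 and TPCN2, and the longest 4.23 between TPCN2 and MCOLN2. With 3 lines these distances describe the changes and carry no test.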

How the data were processed

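Microsomes were treated with micrococcal nuclease and solubilized, and input and Flag-IP material was digested with RNase to footprints, per the labels' protocols. The authors deposited whole-number counts per gene symbol, not normalized. The build hg38 and the tools TopHat2 2.1.0, Bowtie2 2.2.6 and cutadapt 4.1 are listed, per the submitters' processing notes. For annotation, strand setting and duplicate removal nothing was found (each is not given in the sources used here); thus antisense reads and duplicates may be counted. No channel gene overlapped another counted gene in RefSeq (GRCh38), which matched 18968 of 19440 symbols. Rows that name no gene (the shares of reads outside genes above) were left out.

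One edgeR 4.0.16 model (R 4.3.3, limma 3.58.1) gave each combination of line and fraction its own mean over the 14 libraries, after filterByExpr and TMM. Its robust quasi-likelihood tests were adjusted by Benjamini-Hochberg over 9458 genes and called at 0.05. SEs come from the fitted means and dispersions. Pair ratios of the sign-flip test used a pseudocount of 0.5. Replicates of a group all differed by more than sampling noise (chi-square over degrees of freedom 2.11 to 8.77). Input and IP of a line carry the same replicate number in the labels and the IP was made from that input, so the numbers pair them; their deviations from group means correlated at 0.27 (EMC6), 0.07 (EMC7) and 0.04 to 0.10 (EMC10). Alternatives were the replicate block, DESeq2 1.42.0, other scalings and filters, lines fitted alone and leaving out each library. The code was tested on simulated data first.

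The channels and lists were chosen with earlier results of these data known. Named besides the 6 channels and the baits were, per list, the largest rise, the largest fall and the highest input level, and the 3 genes most like each channel, some of which are not reported here. The chloride channels and exchangers and PKD2 were added after their values were seen. Levels per coding length were not computed here, and no levels are compared between genes.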

Additional observations from a re-analysis of the deposited data

Results flagged for a closer look

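The change of MCOLN2 from input to IP differed between 2 baits by a test of the difference itself: it was 1.18 (log2) higher with EMC7 than with EMC10, at an adjusted p of 0.0476 in the edgeR fit. The call was marginal and was lost under 11 of 22 alternatives, over which the adjusted p ran from 5.92e-10 (replicate block) to 0.495. The single pairs were at 2.28 and 2.61 with EMC7 and at 1.61, 1.13 and 1.06 with EMC10.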

How the results depend on the processing

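The 6 rises over the mean of the lines kept their direction and their call under all 22 alternatives each. Depth was low in the EMC6 line, where MCOLN1 had 18 to 32 counts per library. The number of channels called for EMC7 minus EMC6 was 1 in place of 0 with the replicate block, with DESeq2, without the filter and with the filter of at least 1 CPM (0 to 1 without each library). For EMC10 minus EMC6 it was 1 with library size alone (TPCN2 at -0.89, adjusted p = 0.0428; 0 to 1 without each library). For EMC7 minus EMC10 it was 0 with library size without the bait messages and with scaling on ER luminal genes (0 to 1 without each library). For the EMC6 inputs it was 3 with library size alone or without the bait messages (3 to 6 without each library). The replicate block changed no other call of a channel, and no block could be fitted between the inputs of different lines.

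Changes of sign touched differences between lines. With library size alone EMC10 minus EMC6 was -0.12 for MCOLN1, -0.28 for MCOLN2 and -0.27 for MCOLN3. For EMC7 minus EMC10, TPCN1 was -0.092 with library size without the bait messages, -0.35 with ER luminal scaling, -0.0099 with DESeq2, -0.0051 without the filter, -0.0081 with the filter of at least 1 CPM and -0.074 with lines fitted alone. ER luminal scaling gave -0.23 for TPCN2, -0.088 for MCOLN1, -0.048 for MCOLN3 and -0.12 for TMEM175 there. It gave 0.71 for TPCN1, 0.60 for TPCN2 and 0.35 for TMEM175 in the EMC6 inputs, and -0.069 for MCOLN2 and -0.026 for MCOLN3 in EMC7 against EMC10 inputs.

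Without each library in turn, EMC7 minus EMC6 ran from -1.34 to 0.125 for TPCN1, from -0.957 to 0.231 for TMEM175 and from -0.234 to 0.938 for MCOLN3. EMC10 minus EMC6 ran from -1.34 to 0.118 for TPCN1, -0.156 to 0.555 for MCOLN1, -0.493 to 0.462 for MCOLN2 and -0.533 to 0.627 for MCOLN3. EMC7 minus EMC10 ran from -0.207 to 0.169 for TPCN1, -0.098 to 0.365 for TPCN2 and -0.033 to 0.518 for TMEM175. The EMC6 inputs ran from -1.30 to 0.068 for TPCN1. EMC7 against EMC10 inputs ran from -0.136 to 0.178 for TPCN1, -0.451 to 0.012 for TPCN2, -0.064 to 0.128 for MCOLN2 and -0.406 to 0.145 for TMEM175. The causes were not tested.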
